A study of Saccharomyces cerevisiae with 4 samples.

Results

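The vacuole of budding yeast breaks down proteins with a small set of hydrolases, and the genes of 6 of these enzymes and of 3 proteins that inhibit them are described here. The enzymes are the endoproteases PEP4 and PRB1, the carboxypeptidases PRC1 and CPS1 and the aminopeptidases APE1 and APE3, and the inhibitors are PAI3, PBI2 and TFS1. They were found by their gene symbol or a synonym in the annotation of the array platform, where APE1 is written LAP4. Each of the 9 genes had 1 probe among the 6388 gene probes of the array, and all 9 probes were above background in every channel of every array (signal over the local background by more than 3 SD of it).

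The vacuolar proteases work as a cascade. Proteinase A, the product of PEP4, is an aspartyl protease that activates itself in the acidic vacuole and then cleaves the precursors of the other enzymes, among them proteinase B (PRB1), which takes part in the later cleavages. Most precursors reach the vacuole through the secretory pathway, whereas the aminopeptidase precursor of APE1 is made in the cytosol and is carried in by a selective form of autophagy. The inhibitors are small cytosolic proteins, each known to act on a particular enzyme: the PAI3 product on proteinase A, the PBI2 product on proteinase B and the TFS1 product on carboxypeptidase Y, which PRC1 encodes. Starvation for nutrients is a known setting in which vacuolar proteolysis is needed.

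Expression was measured in the haploid Saccharomyces cerevisiae strain BY4742 carrying YCpLac111, a centromeric plasmid with a LEU2 marker. One group of cultures grew with little phosphate (75 uM added, 0.075 mM, called low phosphate) and the other with ample phosphate (10 mM added, called standard phosphate), both in otherwise phosphate-free synthetic complete medium with glucose and both harvested in mid-log phase. Each of the 4 arrays held a sample beside a common reference, RNA of wild-type BY4742 for which no plasmid is named, and each group has 2 arrays, lettered a and b. The a arrays had the sample in Cy3 and the b arrays in Cy5, so culture and dye cannot be told apart within a group. The submitters describe independent cultures, while the study's methods describe dye-swapped repeats of biological replicates. If a group's arrays came from 1 culture, the p-values below measure technical spread alone. All values are log2 of sample over reference, so a value of 0 means as much signal as in the reference, and a difference of 1 between groups is a factor of 2.

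Over gene spots the samples had median signals of 310 and 322 on the low phosphate arrays, against 383 and 254 on the standard phosphate arrays, while the reference had 254 and 243 beside low phosphate and 703 and 131 beside standard phosphate. Low phosphate array b stood apart. The SD of its ratios across probes was 0.599, against 0.197 to 0.27 on the other 3 arrays, and the values of the 9 genes are therefore given for each array and their differences also without it. The 4 markers of mating type alpha had sample signals of 1724 to 18597 and the 6 markers of mating type a had 56.6 to 169 in this strain of mating type alpha. Of those 6, 5 were above background in the sample channel of all 4 arrays. Passing the background rule therefore does not by itself show that a gene is expressed.

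All 9 genes had higher ratios on both low phosphate arrays than on either standard phosphate array. The mean differences ran between 0.62 (APE3) and 2.08 (TFS1) on the log2 scale, 1.54-fold and 4.22-fold. Their median was 1.13, against 0.00 over all gene probes, and it was 0.79 for the enzymes and 1.20 for the inhibitors. The lack of overlap was itself common, since 26.5 percent of all gene probes had both low phosphate arrays above both standard phosphate arrays. Of the 9 genes, 3 (CPS1, PRB1 and APE1) had an unadjusted limma p under 0.05 and a higher mean in low phosphate, against 6.34 percent of all probes, and 2 (PRB1 and APE1) were also more than 1.7-fold higher, the study's threshold of change, against 1.6 percent. After Benjamini-Hochberg adjustment over all probes, 0 of the 9 genes passed 0.05 in limma, and 0.0157 percent of probes did. No gene of the set can therefore be said to have changed by that test.

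**Figure D1:**
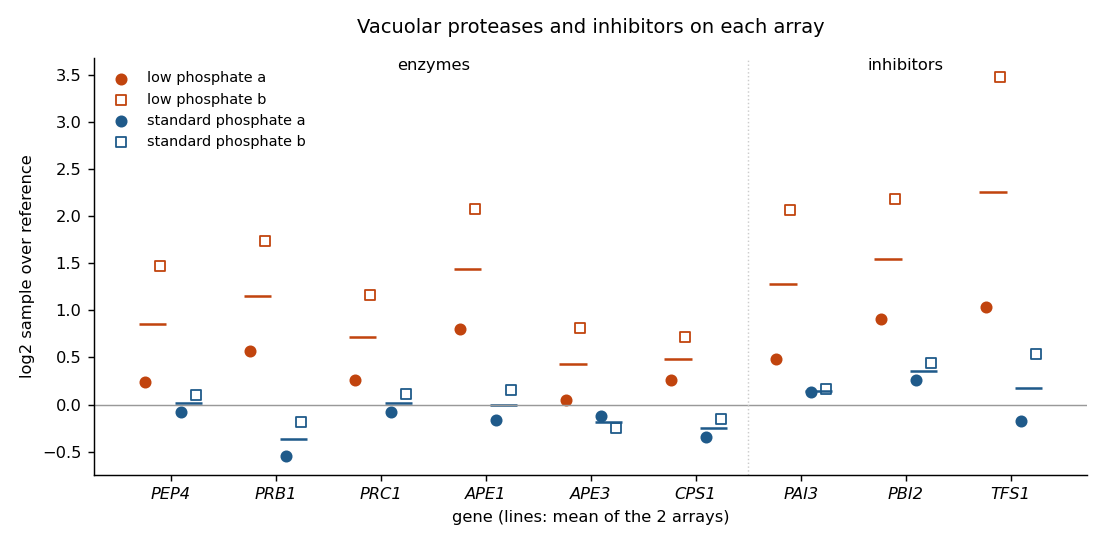
Log2 ratio of sample over common reference (vertical axis) for the 6 enzyme genes and 3 inhibitor genes (horizontal axis) on low phosphate arrays a and b and standard phosphate arrays a and b, with lines at the mean of each group. For every gene both low phosphate points lie above both standard phosphate points, and low phosphate b lies above low phosphate a, by 0.47 (CPS1) to 2.43 (TFS1).

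The endoproteases head the cascade. PEP4 (YPL154C) had ratios of 0.24 and 1.47 on low phosphate arrays a and b, against -0.08 and 0.10 on standard phosphate arrays a and b. Its groups did not overlap, but the gap between the lower low phosphate array and the higher standard phosphate array was 0.14, and the mean difference of 0.84 had an SE of 0.45 (limma, adjusted p = 0.435). It was 0.23 without low phosphate b, 1.46 without low phosphate a and 0.52 with arrays scaled to the same spread. PRB1 (YEL060C), a serine protease of the subtilisin family, had 0.57 and 1.74 in low phosphate, against -0.55 and -0.19 in standard phosphate. The gap between its groups, 0.75, was the widest of the 9 genes, and it was the gene with the lowest mean ratio in standard phosphate. The difference was 1.52 (SE 0.44, 2.86-fold, limma, adjusted p = 0.42), and it ranked 49 among the 6388 probes. Without low phosphate b the difference in PRB1 was 0.93, and without low phosphate a it was 2.10.

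The carboxypeptidases remove amino acids from the C-terminal ends of peptides. PRC1 (YMR297W), the gene of carboxypeptidase Y, had ratios of 0.27 and 1.16 on low phosphate arrays a and b and of -0.08 and 0.11 on the standard phosphate arrays. These are close to the values of PEP4 on all 4 arrays, and PEP4 and PRC1 were the closest pair within the set, with a Euclidean distance of 0.315 over the 4 log2 ratios. The mean difference in PRC1 was 0.70 (SE 0.33, 1.62-fold, limma, adjusted p = 0.422), and it became 0.25 without low phosphate b, 1.14 without low phosphate a and 0.44 with the arrays scaled. CPS1 (YJL172W), which encodes a zinc-dependent carboxypeptidase that is delivered as a membrane protein, had 0.26 and 0.72 in low phosphate, against -0.34 and -0.15 in standard phosphate. Its low phosphate arrays differed less from each other than those of any other gene of the set. The difference was 0.74 (SE 0.20, 1.67-fold, limma, adjusted p = 0.42), the smallest SE among the 9 genes, and it was 0.50 without low phosphate b and 0.97 without low phosphate a.

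The aminopeptidases cut from the N-terminal end. APE1 (YKL103C), the aminopeptidase that travels by selective autophagy, had ratios of 0.80 and 2.07 in low phosphate, against -0.17 and 0.15 in standard phosphate. Among the enzymes it was highest on both low phosphate arrays, and its difference of 1.44 (SE 0.47, 2.72-fold, limma, adjusted p = 0.42) was second to that of PRB1 among the enzymes. The APE1 difference was 0.81 without low phosphate b and 2.08 without low phosphate a. APE3 (YBR286W), aminopeptidase Y, had 0.05 and 0.82 in low phosphate, against -0.13 and -0.24 in standard phosphate. Its low phosphate a value lay 0.18 above the higher standard phosphate value, and the difference of 0.62 (SE 0.29, 1.54-fold, limma, adjusted p = 0.421) was the smallest of the 9 genes. It was 0.24 without low phosphate b and 1.002 without low phosphate a.

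The inhibitor genes had mean differences of 1.13 (PAI3) to 2.08 (TFS1). PAI3 (YMR174C) had ratios of 0.48 and 2.07 in low phosphate, against 0.13 and 0.17 in standard phosphate. Its probe was the dimmest of the set. The sample signal was 102 and 405 in low phosphate and 102 and 74.1 in standard phosphate. Local backgrounds were 41.5 and 48.5 in low phosphate and 47 and 48 in standard phosphate. The low phosphate b sample was the brightest of the 4. Apart from it, the sample signals lay within the 56.6 to 169 of the mating type a markers. The reference signal was 66.4 and 67.2 beside low phosphate, over backgrounds of 48 and 42.5. Beside standard phosphate the reference had 133 and 47.1, over backgrounds of 59 and 38. The difference in PAI3 was 1.13 (SE 0.57, 2.19-fold, limma, adjusted p = 0.427). It was 1.73 without the offset of 50 that is added to every background-corrected intensity, 0.69 with all arrays scaled to the same spread, 0.34 without low phosphate b and 1.92 without low phosphate a.

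PBI2 (YNL015W), whose product also takes part in vacuole fusion together with thioredoxin, had 0.91 and 2.18 in low phosphate, against 0.26 and 0.44 in standard phosphate. It was the gene of the set with the highest mean ratio in standard phosphate, 0.35 ± 0.13 (SD, n = 2). The difference was 1.20 (SE 0.46, 2.29-fold, limma, adjusted p = 0.42) and the gap between the groups 0.47. Leaving out low phosphate b gave 0.56, leaving out low phosphate a gave 1.83, and scaling the arrays gave 0.70. TFS1 (YLR178C), a member of the phosphatidylethanolamine-binding protein family, had 1.04 and 3.47 in low phosphate, against -0.18 and 0.54 in standard phosphate. It was highest of the set on both low phosphate arrays and differed most between arrays within each group. Its difference of 2.08 (SE 0.90, 4.22-fold, limma, adjusted p = 0.421) ranked 14 among all probes, and was 0.86 without low phosphate b, 3.29 without low phosphate a and 1.29 with arrays scaled to the same spread.

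The dye orientations gave different sizes of difference. Their shared direction follows from the lack of overlap, which 26.5 percent of all gene probes had, and is no separate result. Between the a arrays, low minus standard phosphate was 0.18 (APE3) to 1.22 (TFS1) with a median of 0.60 over the 9 genes, and between the b arrays it was 0.88 (CPS1) to 2.93 (TFS1) with a median of 1.74. Over all gene probes these medians were 0.00 in both orientations. The order of the genes differed in part. CPS1 was the fifth highest between the a arrays and the lowest between the b arrays, whereas PAI3 was the sixth between the a arrays and the fourth between the b arrays. In standard phosphate, array b minus array a ran from -0.12 (APE3, the only gene below 0) to 0.72 (TFS1). In low phosphate, array b exceeded array a for 9 of 9 genes by at least 0.47, and 9.75 percent of all gene probes exceeded it by as much. The part that this array plays in the differences was not tested beyond leaving it out. With it left out, the median of the 9 genes was 0.50, and with low phosphate a left out it was 1.83. A lone array left in a group is assumed to vary as the arrays of the other group do. Calls among the 9 genes in such fits are therefore not read as results on these genes. Leaving out standard phosphate a gave a median of 1.10 and leaving out standard phosphate b gave 1.15.

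**Figure D2:**
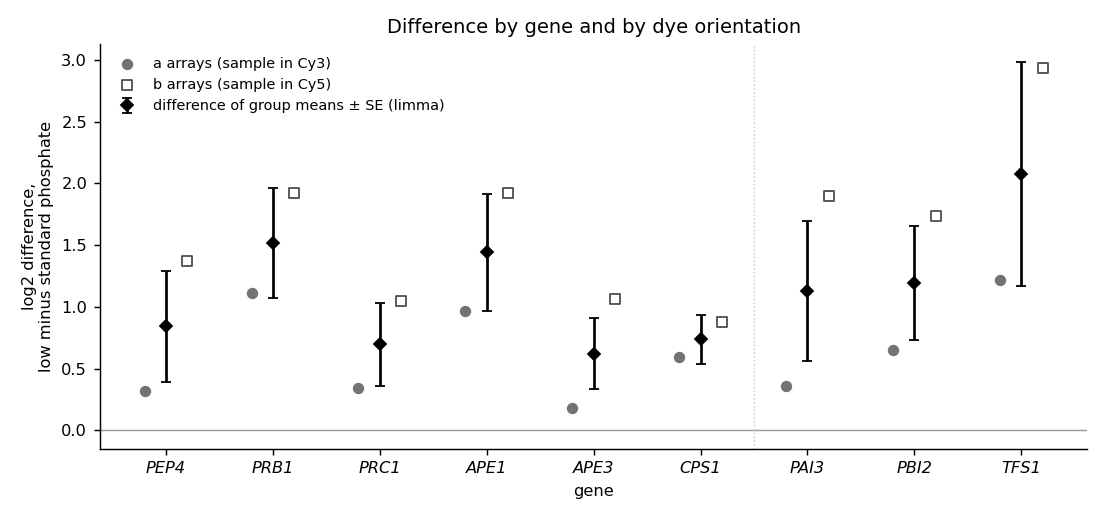
Log2 difference, low minus standard phosphate (vertical axis), for each gene (horizontal axis), as the mean over both arrays of a group with its limma SE (diamonds, bars) and within the a arrays and the b arrays (circles, squares). The values of both orientations lie above 0 for all 9 genes, which follows from groups that do not overlap. The b arrays give the larger value for each gene, as with 0.36 and 1.90 for PAI3.

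Against the common reference, the low phosphate means were above 0 for 9 of 9 genes, with a median of 1.15, and the standard phosphate means had a median of 0.01 and lay between -0.37 (PRB1) and 0.35 (PBI2). In low phosphate TFS1 was highest at 2.26, PBI2 had 1.55, APE1 1.43, PAI3 1.28, PRB1 1.15, PEP4 0.86, PRC1 0.71, CPS1 0.49 and APE3 0.43. Neighbours in this order differed by no more than the larger of their SEs, which ran between 0.14 and 0.64, except TFS1 and PBI2, whose step was smaller than the sum of their SEs of 0.64 and 0.33. In low phosphate 0 of 9 genes passed an adjusted p of 0.05 against the reference in limma, where 0.297 percent of probes did, and in standard phosphate 0 of 9, where 0.0783 percent did. With arrays scaled to the same spread 6 genes passed in low phosphate (PBI2, APE1, PRB1, PAI3, TFS1 and CPS1). The share of all probes passing with that scaling is not given here, so these 6 say nothing particular to the set. Without low phosphate a the low phosphate ratios ran between 0.72 (CPS1) and 3.47 (TFS1). Without low phosphate b they ran between 0.05 (APE3) and 1.04 (TFS1).

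Whether an inhibitor moved with its protease was read from the log2 ratio of the inhibitor minus that of its protease on each array, which shows unequal change and no more. For PAI3 and PEP4 this was 0.25 and 0.59 in low phosphate, against 0.21 and 0.06 in standard phosphate, so that the inhibitor stood slightly higher relative to its protease on the low phosphate arrays. The difference of 0.29 had an SE of 0.19, was 0.04 between the a arrays and 0.53 between the b arrays, and became 0.87 without the offset, 0.52 with normalization per print block, 0.16 with the arrays scaled, 0.11 without low phosphate b and 0.46 without low phosphate a. For PBI2 and PRB1 the values were 0.35 and 0.44 in low phosphate, against 0.81 and 0.63 in standard phosphate. Here the inhibitor stood lower relative to its protease in low phosphate, by -0.32 (SE 0.10), as PRB1 differed more than PBI2. This was -0.37 without low phosphate b, -0.27 without low phosphate a and -0.54 with the arrays scaled. It was -0.46 between the a arrays and -0.19 between the b arrays. For TFS1 and PRC1 they were 0.78 and 2.31 in low phosphate, against -0.10 and 0.43 in standard phosphate, a difference of 1.38 (SE 0.81) that was 0.61 without low phosphate b, 2.15 without low phosphate a and 0.85 with the arrays scaled. In each of the 3 pairs the groups did not overlap, and each had a p of 0.333 in the two-sided exact permutation test, before and after adjustment over the 3 pairs. With 2 against 2 arrays 0.333 is the smallest p this test can give, so none of the pairs could pass.

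**Figure D3:**
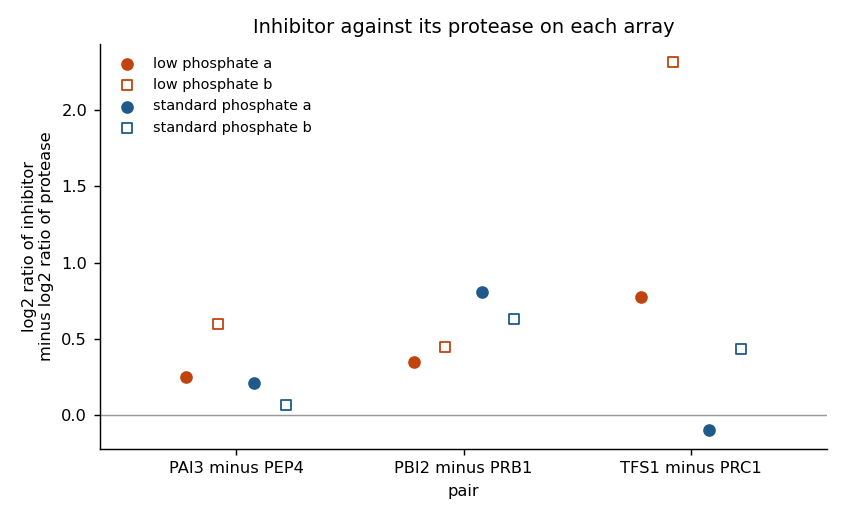
Log2 ratio of the inhibitor gene minus log2 ratio of the gene of the protease it is known to inhibit (vertical axis) for 3 pairs (horizontal axis) on each of the 4 arrays. The low phosphate points lie above the standard phosphate points for PAI3 minus PEP4 and TFS1 minus PRC1, and below them for PBI2 minus PRB1.

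Other vacuolar hydrolases, which share the compartment but cut other substrates for the most part, had a median difference of 0.94 over the 7 measured of 8 listed, with a higher mean in low phosphate for 7 of 7. That median was 0.45 between the a arrays and 1.42 between the b arrays. PHO8, the vacuolar alkaline phosphatase, differed most, with 1.07 and 1.74 in low phosphate, against 0.14 and 0.07 in standard phosphate (difference 1.30, SE 0.26). It was the 1 gene of that list over 1.7-fold higher with an unadjusted limma p under 0.05. ATG15, the phospholipase that disintegrates autophagic bodies, differed least, with 0.03 and 0.20 in low phosphate, against 0.04 and -0.14 in standard phosphate.

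The paralogs of the protease and inhibitor genes had smaller differences than the gene each is related to, apart from YOL153C. The 4 measured of 6 listed had a median difference of 0.10. YOL153C, a homolog of CPS1, had 0.13 and 1.18 in low phosphate, against -0.27 and -0.06 in standard phosphate, a difference of 0.82 (SE 0.39). The subtilisin-family genes YSP3 and RRT12, relatives of PRB1, differed by 0.12 (SE 0.13) and 0.08 (SE 0.085), and the probe of RRT12 was above background in 3 of 8 channels only. YLR179C, the paralog of TFS1, had -0.07 and -0.92 in low phosphate, against -0.30 and -0.59 in standard phosphate. Its groups overlapped, with a difference of -0.05 (SE 0.33), beside 2.08 for TFS1.

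Genes that bring the proteases to the vacuole or run it differed less. Of sorting and fusion genes 21 of 22 listed were measured, and their median difference was 0.11. The highest was ATG19, the receptor that links the APE1 precursor to selective autophagy, with 0.78 and 1.52 in low phosphate, against -0.25 and 0.13 in standard phosphate (difference 1.21, SE 0.31). ATG19 and GGA1, a clathrin adaptor of the Golgi, were the 2 of that list over 1.7-fold higher with an unadjusted limma p under 0.05, and the lowest was VAM3, the vacuolar syntaxin, with a difference of -0.23 (SE 0.13). GGA1 is named here because of its value. The subunits and assembly factors of the proton pump that acidifies the vacuole, 17 measured of 19 listed, had a median of 0.03, between -0.15 for VPH1 and 0.31 for VMA1. Vacuolar amino acid transporters, 10 of 12, had a median of 0.13, between -0.33 for VBA2 and 0.80 for ATG22, an exporter of amino acids from the vacuole. For 32 proteases of other compartments the median was 0.07, with 17 higher and 15 lower, between -0.38 for NMA111, a nuclear serine protease, and 0.93 for YPS1, an aspartyl protease at the cell surface. In none of these lists did a gene pass an adjusted p of 0.05 (limma).

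The 16 general stress genes, known to respond to many conditions, had a median difference of 1.79, above that of the proteases and inhibitors, and 16 of 16 had a higher mean in low phosphate. The list ran between 0.25 for HSP12, with 0.95 and 4.16 in low phosphate, against 2.11 and 2.51 in standard phosphate, and 3.66 for HSP26, with 1.97 and 3.80, against -1.04 and -0.51. As with the proteases and inhibitors, the list's median was higher between the b arrays (2.51) than between the a arrays (1.04). The part of a general stress response in the values of the 9 genes was not tested.

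**Figure D4:**
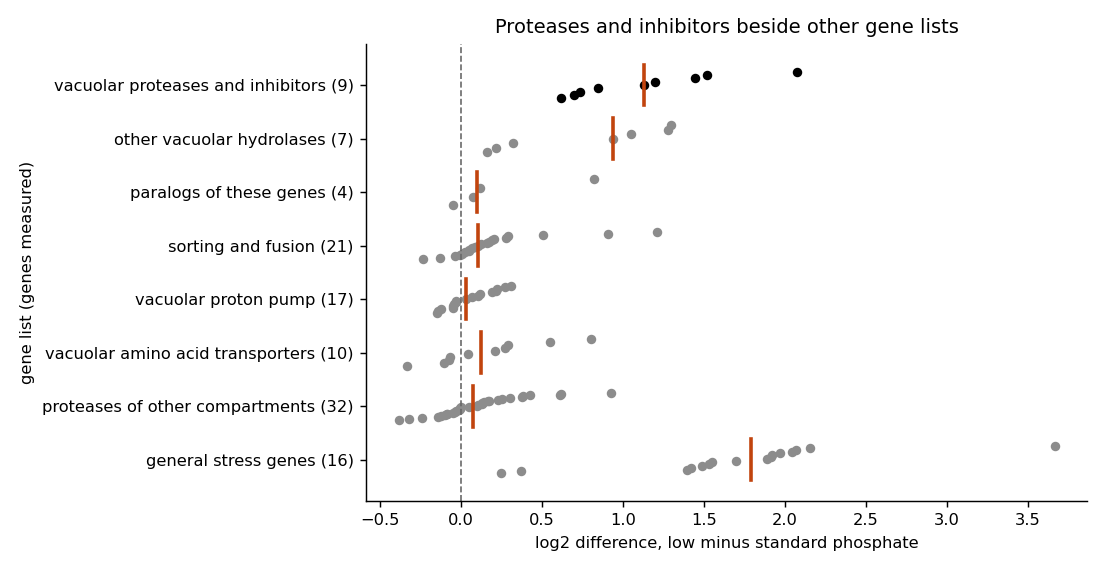
Log2 difference, low minus standard phosphate (horizontal axis), of each measured gene (points, spread vertically for legibility only) in 8 gene lists (vertical axis), with the list median (orange bar) and the median of all gene probes (dashed line, 0.00). Medians are 1.13 for the vacuolar proteases and inhibitors, 0.94 for other vacuolar hydrolases, 1.79 for general stress genes and 0.03 to 0.13 for the other 5 lists.

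The genes with the most similar values over the 4 arrays were taken by Euclidean distance among 4934 named genes above background throughout, which says nothing of shared function or control. Nearest to PEP4 were DAK1 (distance 0.059), a dihydroxyacetone kinase gene, PHM7 and GUT2. DAK1 had 0.20 and 1.47 in low phosphate, against -0.08 and 0.06 in standard phosphate. Nearest to PRB1 were HSP104 (distance 0.283), a protein disaggregase gene of the general stress list, PST1 and YHR138C. The last of these encodes a protein similar to the PBI2 product, and had 0.50 and 1.66 in low phosphate, against -0.22 and 0.00 in standard phosphate. Nearest to PAI3 were UIP4 (distance 0.088), DDR48 and HSP31. PBI2 had YNL208W (distance 0.28), PIC2 and SPI1 nearest, and TFS1 had RGI1 (distance 0.326), PGM2 and RTN2, of which PGM2 is also on the general stress list. Within the set APE3 and CPS1 (distance 0.323) were the second closest pair, and CPS1 and TFS1 (2.95) the farthest.

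On the chromosomes the 9 genes do not lie beside one another, and their neighbours, taken from the gene order of the current reference annotation, differed little in most cases. Of 18 neighbours 15 were measured by name, with a median difference of 0.11, and 12 were within 1.7-fold. The 3 over 1.7-fold higher were YBR287W beside APE3 and both neighbours of PAI3. DDR48, a stress gene and also one of the closest genes to PAI3 by value, had 0.59 and 2.02 in low phosphate, against 0.30 and 0.13 in standard phosphate. SIP18, on the other side of PAI3, had 0.56 and 2.42 in low phosphate, against -0.01 and 0.01 in standard phosphate, with 5 of 8 channels above background. YBR287W had 0.73 and 1.39, against -0.09 and -0.19, a difference of 1.20 that exceeded the 0.62 of APE3. TFS1 lies between YLR177W, with a difference of 0.72 (SE 0.24), and its own paralog YLR179C. The neighbours of PEP4, KIP2 and RAD53, differed by 0.06 (SE 0.10) and 0.11 (SE 0.11), beside 0.84 for PEP4, and those of PRC1, LCB1 and LIP1, by 0.15 (SE 0.098) and 0.06 (SE 0.10), beside 0.70 for PRC1.

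**Figure D5:**
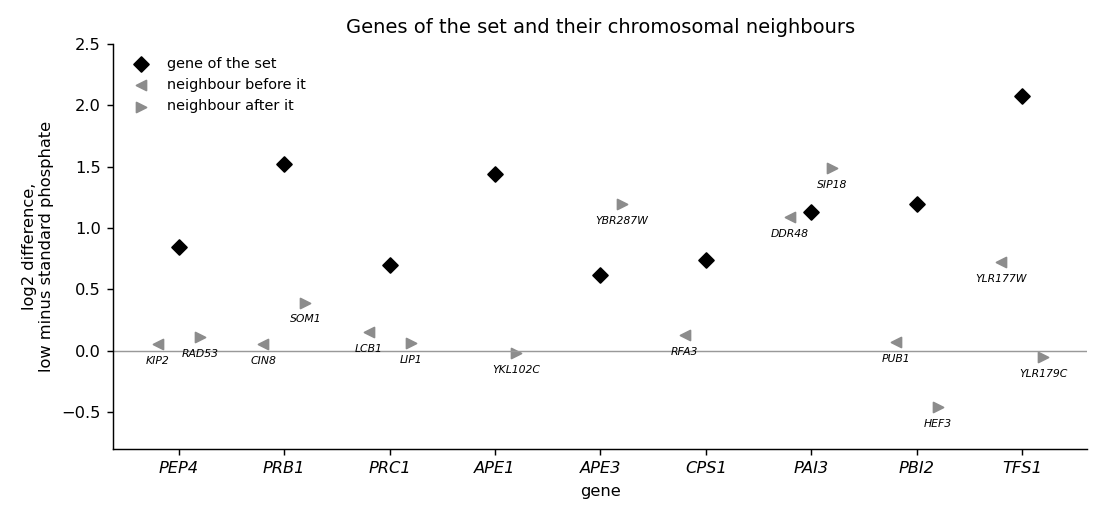
Log2 difference, low minus standard phosphate (vertical axis), of the 9 genes (diamonds) and of their measured chromosomal neighbours (triangles), by gene (horizontal axis). The neighbours of PAI3, DDR48 (1.09) and SIP18 (1.49), lie near PAI3 (1.13), whereas the neighbours of PEP4, PRC1, PBI2 and CPS1 lie between -0.46 and 0.15.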

How the data were processed

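The authors scanned the spotted arrays with an Agilent scanner and quantified them with Imagene, and the deposited scanner files hold unnormalized intensity values per spot, of which the mean signal and the median background of each channel were used. Background was corrected with normexp (offset 50) and arrays were normalized by loess over the gene spots in limma 3.58.1 (R 4.3.3), with no weight on control spots. Ratios were turned to log2 of sample over reference by the dyes in the labels, and the 2 spots of each probe were averaged (12776 spots, 6388 probes, of which 5326 carry a gene symbol). The deposited series table of log2 ratios, which the authors made by print-tip loess (span 0.4) without background subtraction and with a correction for dye bias, served as an alternative; it ran as sample over reference on every array, with column medians of -0.0049 to 0.010. Whether those values were centred further is not stated in the sources used here. A final table of the authors' M and p-values was not used.

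Group means were fitted with lmFit and eBayes on all 4 arrays, two-sided, with Benjamini-Hochberg adjustment over all gene probes and 2 residual degrees of freedom. The reference is 1 RNA pool with no spread of its own. The script was tested on simulated data with known differences. The number of arrays limits the precision. The genes of the set, the gene lists and the tests were chosen with earlier results of these data known. Every gene of the set was named, and of each list the highest and lowest gene above background throughout and all paralogs. For PEP4, PRB1, PAI3, PBI2 and TFS1 the 3 most similar genes were named, and the chromosomal neighbours of the set and GGA1 were added after the values were seen. Listed genes without a probe of that name were left out. Neighbours come from the R64 reference annotation. Promoters, proteins and probe sequences were not used here. Alternatives were other background corrections, normalizations, variance models and filters, the deposited ratios, a replicate block and each array left out.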

Additional observations from a re-analysis of the deposited data

Results flagged for a closer look

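In 3 genes of the set both low phosphate arrays lay above the common reference and both standard phosphate arrays below it. They were PRB1, with a difference of 1.52 between the groups, CPS1 with 0.74 and APE3 with 0.62. How many of all probes had this pattern was not counted, so it is not read as particular to these genes. Both low phosphate arrays lay above both standard phosphate arrays in 26.5 percent of all probes. None of the 3 genes had an adjusted p under 0.05 in limma between the groups (0.42, 0.42 and 0.421). None had one against the reference in either condition. The reference, for which no plasmid is named, sets where 0 lies. For APE3 the low phosphate a value was 0.05, close to 0. The pattern as such was not tested beyond the comparisons named here.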

How the results depend on the processing

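In low phosphate the mean of all 9 genes was higher under each of the 14 alternatives that measured them (125 of 125 values). Part of this count was fixed in advance. Leaving out an array could not reverse a difference between groups that did not overlap. The other variance model, the replicate block and the filter on dim probes kept the main ratios, and so the main differences. PAI3 was dropped with the dimmest 0.2 of the probes. No gene of the set passed the adjusted limma threshold in any alternative that kept all 4 arrays. As reported, 3 of 9 genes had an unadjusted p under 0.05. With 1 array left out at a time, the calls ranged from 0 to 9, the median difference from 0.503 to 1.83, the calls against the reference from 0 to 10 and the genes over 1.7-fold with an unadjusted p under 0.05 from 0 to 9. In these fits a lone array is assumed to vary as the arrays of the other group do. Their counts are therefore not read as results on the 9 genes. The ranges over all probes in the same fits are given in the next paragraph. Genes of the set over 1.7-fold higher with an unadjusted limma p under 0.05 numbered 2 in the main fit, beside 102 of all probes. They numbered 4 with normexp offset 0, median centring or the replicate block, beside 208, 148 and 169 of all probes. With trend and robust there was 1, beside 74. Scaling between arrays gave 6 calls against the reference, for which the share of all probes is not given. It gave a median difference of 0.687 over the genes and -0.538 for PBI2 minus PRB1. PAI3 minus PEP4 was 0.868 with normexp offset 0 and 0.519 with print-tip loess. The causes were not tested.

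Over all probes the adjusted calls were 1, against 0 with the replicate block, the deposited ratios, median centring, normexp offset 0, loess on spike-in spots and print-tip loess, 3 with scaling between arrays and 0 to 2030 with an array left out (733 probes at an unadjusted p under 0.05). Probes with an unadjusted p under 0.05 that were over 1.7-fold higher numbered 102, against 94 lower, and 208 with normexp offset 0, 169 with the replicate block and 35 to 450 with an array left out. The split was 148 higher and 88 lower with median centring and 80 and 218 with loess on spike-in spots. Arrays of the same letter deviated together only weakly (r = 0.28 across probes), and the letter marks the dye, so they were not taken as pairs. The dim probe of PAI3 is the one most limited by its signal over background.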
